A study of Mus musculus with 78 samples.

Results

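The genes described here are 8 genes of blood clotting, its natural inhibitors and clot dissolution: F3, Tfpi, Thbd, Procr, Plau, Plaur, Plat and Vwf. The genes were chosen with earlier results of these data known. Their probe sets were taken by name alone, as every probe set on the array whose annotation gave 1 of these symbols and no other. That took 13 of 34945 single-symbol probe sets, or 8 of 18193 genes. All 13 passed a filter on low values (a signal above 331 on at least 6 arrays), as did 26685 probe sets in all, and 9 of the 13 lay above that level on all 78 arrays. Tfpi had 4 probe sets, Plat and Plau had 2 each, and the brightest probe set of a gene is the one meant below unless another is named.

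The study followed blood vessels that an adenovirus expressing mouse VEGF-A164 (Ad-VEGF-A164) raises in flank skin, and asked which of them respond to antibodies against the VEGF system as they age. The injected groups were G6 at 10 mg/kg, DC101 at 20 mg/kg and no antibody (untreated), each at days 5, 20 and 60, and the last group was control flank at day 0. DC101 is a rat antibody to the mouse receptor VEGFR2. The labels describe both antibodies together as directed at VEGF receptors, a joint wording that is not taken here as the target of G6. Each group had 8 arrays, except DC101 at day 60 with 6. All mice were female athymic nude mice of the Foxn1nu strain, 4 to 6 weeks old, which lack a thymus and mature T cells, and the injected mice also received the virus in the ear. No group with an empty virus was labelled, the control flank is not said to have been injected, and the labels do not say whether a day counts to treatment or to tissue collection. The study used at least 5 animals a group without tying arrays to animals, so that 1 animal may stand behind several arrays, in which case the p-values below are too small. Deviations from the group mean correlated at a mean r of 0.054 in 39 pairs of arrays with adjacent numbers. In the other 228 pairs of the same group the mean was -0.17. An r over 0.1 was found in 18 of the adjacent and 28 of the other pairs. Whether adjacent arrays share an animal was not tested.

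Tissue factor, the product of F3, is the cell-surface receptor that starts coagulation when it meets factor VII, and the product of Tfpi inhibits that step. Thrombomodulin (Thbd) on endothelial cells captures thrombin and, with the endothelial protein C receptor (Procr), turns it toward activation of the anticoagulant protein C. Plasmin dissolves fibrin and is made from plasminogen by tissue-type (Plat) and urokinase-type (Plau) plasminogen activator, the second of which binds the receptor encoded by Plaur. Von Willebrand factor (Vwf), stored in the Weibel-Palade bodies of endothelial cells, tethers platelets to the vessel wall. VEGF-A makes vessels leak plasma, and the fibrinogen that leaves them clots in the tissue.

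The genes lie on 6 mouse chromosomes in GRCm38.p6, the assembly of the RefSeq table used for positions. Tfpi, Thbd and Procr lie on chromosome 2, at 84432855 to 84476775, 148404471 to 148408188 and 155751125 to 155755478. F3 lies on chromosome 3 at 121723537 to 121735052, Vwf on chromosome 6 at 125552948 to 125686679, and Plaur on chromosome 7 at 24460937 to 24475970. Plat lies on chromosome 8 at 22757722 to 22782848 and Plau on chromosome 14 at 20836662 to 20843388.

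RefSeq windows of 300 bases (GRCm38.p6) around the start were at hand for Plaur, F3, Procr and Tfpi. They are printed 5′ to 3′ on the gene's strand because Plaur and Tfpi had the largest increases at injected sites. Of 2 Tfpi windows the one at the upstream start is shown. Capitals mark matches, on either strand, to AP-1 (TGACTCA), Sp1 (GGGCGG) and TATA box (TATAAA) motifs.
Tfpi, chr2:84476710-84477009, minus strand: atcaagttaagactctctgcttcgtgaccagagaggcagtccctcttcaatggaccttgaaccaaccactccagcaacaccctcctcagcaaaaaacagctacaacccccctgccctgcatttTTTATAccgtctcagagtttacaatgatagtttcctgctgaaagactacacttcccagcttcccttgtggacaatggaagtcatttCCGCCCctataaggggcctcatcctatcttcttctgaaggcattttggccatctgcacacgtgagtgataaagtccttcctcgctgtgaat
Procr, chr2:155750967-155751266, plus strand: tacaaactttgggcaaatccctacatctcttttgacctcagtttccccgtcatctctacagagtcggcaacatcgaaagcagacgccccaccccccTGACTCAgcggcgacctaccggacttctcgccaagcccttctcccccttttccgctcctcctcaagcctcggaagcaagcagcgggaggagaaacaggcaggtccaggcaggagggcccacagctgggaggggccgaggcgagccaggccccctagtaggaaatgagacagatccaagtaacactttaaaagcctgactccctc
F3, chr3:121723287-121723586, plus strand: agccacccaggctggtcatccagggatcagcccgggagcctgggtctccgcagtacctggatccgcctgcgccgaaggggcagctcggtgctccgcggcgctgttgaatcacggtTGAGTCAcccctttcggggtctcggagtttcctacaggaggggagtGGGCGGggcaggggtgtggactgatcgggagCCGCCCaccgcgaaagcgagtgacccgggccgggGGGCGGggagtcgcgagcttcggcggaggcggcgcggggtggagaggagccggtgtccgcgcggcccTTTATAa
Plaur, chr7:24462233-24462532, plus strand: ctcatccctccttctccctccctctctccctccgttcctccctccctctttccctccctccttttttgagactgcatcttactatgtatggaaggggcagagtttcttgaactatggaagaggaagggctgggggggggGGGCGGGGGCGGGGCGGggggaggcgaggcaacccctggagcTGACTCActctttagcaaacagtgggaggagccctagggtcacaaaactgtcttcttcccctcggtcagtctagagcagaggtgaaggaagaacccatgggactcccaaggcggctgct

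The AP-1 letters were found in the Plaur, F3 and Procr windows, from bases -69 to -63, -135 to -129 and -154 to -148 before the start. That start is the transcript start on which RefSeq's window was placed, which lies inside the gene span given above for Plaur, Procr and Tfpi. The AP-1 letters occur in 5.20% of the 32851 start-site windows of the table. Neither Tfpi window held them. Sp1 letters were found 3 times in the Plaur window, the last 2 of which share a base, 3 times in F3 and once in each Tfpi window, and occur in 35.7% of all windows. TATA letters, found on the opposite strand in F3 and in the printed Tfpi window, occur in 13.6%. The other Tfpi window held letters of the ETS form CAGGAAG, which occur in 13.3% of all windows. It also held those of the GATA motif AGATAA, which occur in 11.2%. Letters of another ETS form, ACTTCCG (6.42% of all windows), and of the NF-kB motif (0.155%) were in none of the 5 windows. These matches describe the letters and are not binding sites.

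At day 5 of VEGF-A164 expression 2 of the 8 genes were called higher than control and 2 lower. Those counts lie near the shares over all probe sets, 26.6% higher and 23.6% lower. The urokinase receptor gene Plaur rose 5.09-fold and the tissue factor pathway inhibitor gene Tfpi 2.17-fold against control flank, while thrombomodulin (Thbd) fell 2.68-fold and Vwf 2.81-fold. F3, Plat, Plau and Procr did not pass the test at that time. At day 20 Thbd and Vwf were higher than at day 5 and not called against control, Plaur was lower than at day 5, and F3, Tfpi and Plaur were higher than control. G6 moved Plaur, Tfpi, Thbd and Vwf at day 5 in the direction opposite to the untreated change, and DC101 did so for Plaur and Vwf. The comparisons of G6 or DC101 with untreated share the untreated arrays with the comparisons of untreated with control, so that the opposite signs are not independent of each other.

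All changes are on the log2(signal + 16) scale with the standard error (SE) of 1 limma model over the 10 groups, and a probe set was called when its Benjamini-Hochberg adjusted p over 26685 probe sets was under 0.05. Untreated sites at day 5 had 5 of 13 probe sets called higher and 2 lower than control, against 26.6% of all probe sets higher and 23.6% lower. At day 20 there were 7 higher and 0 lower (22.1% and 16.3% of all), and at day 60 there were 2 higher and 1 lower (17.1% and 15.9%). The 4 Tfpi probe sets were all among the higher ones at days 5 and 20. By the brightest probe set of each gene, 2 of 8 were higher and 2 lower at day 5, near the shares over all probe sets. At day 20 that count was 3 higher and 0 lower, and at day 60 it was 1 and 1. The median change of the 13 was 0.29, 0.50 and 0.22 at the 3 days, beside 0.05, 0.07 and 0.07 over all probe sets tested. G6 against untreated gave 2 higher and 6 lower at day 5 (14.2% and 16.8% of all), 0 higher and 4 lower at day 20 (2.88% and 5.02%), and 1 higher and 5 lower at day 60 (3.23% and 7.29%). DC101 against untreated gave 2 higher and 2 lower at day 5 (4.67% and 7.07%), none at day 20 (1.94% and 4.45%), and 4 higher and 0 lower at day 60 (5.53% and 6.87%). Counted over the 8 brightest probe sets, G6 had 2 higher and 3 lower, 0 and 2, and 0 and 4 at the 3 days. DC101 had 2 and 2, 0 and 0, and 2 and 0. For DC101 at day 20, where limma called 0 of the 13, 5 had an unadjusted p under 0.05, and the count was 2 without DC101 array 67 and 1 without the control array lowest for F3. The 4 of G6 at day 20 were 0 without untreated arrays 51 and 52, and the 4 of DC101 at day 60 were 1 without untreated array 79.

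**Figure D1:**
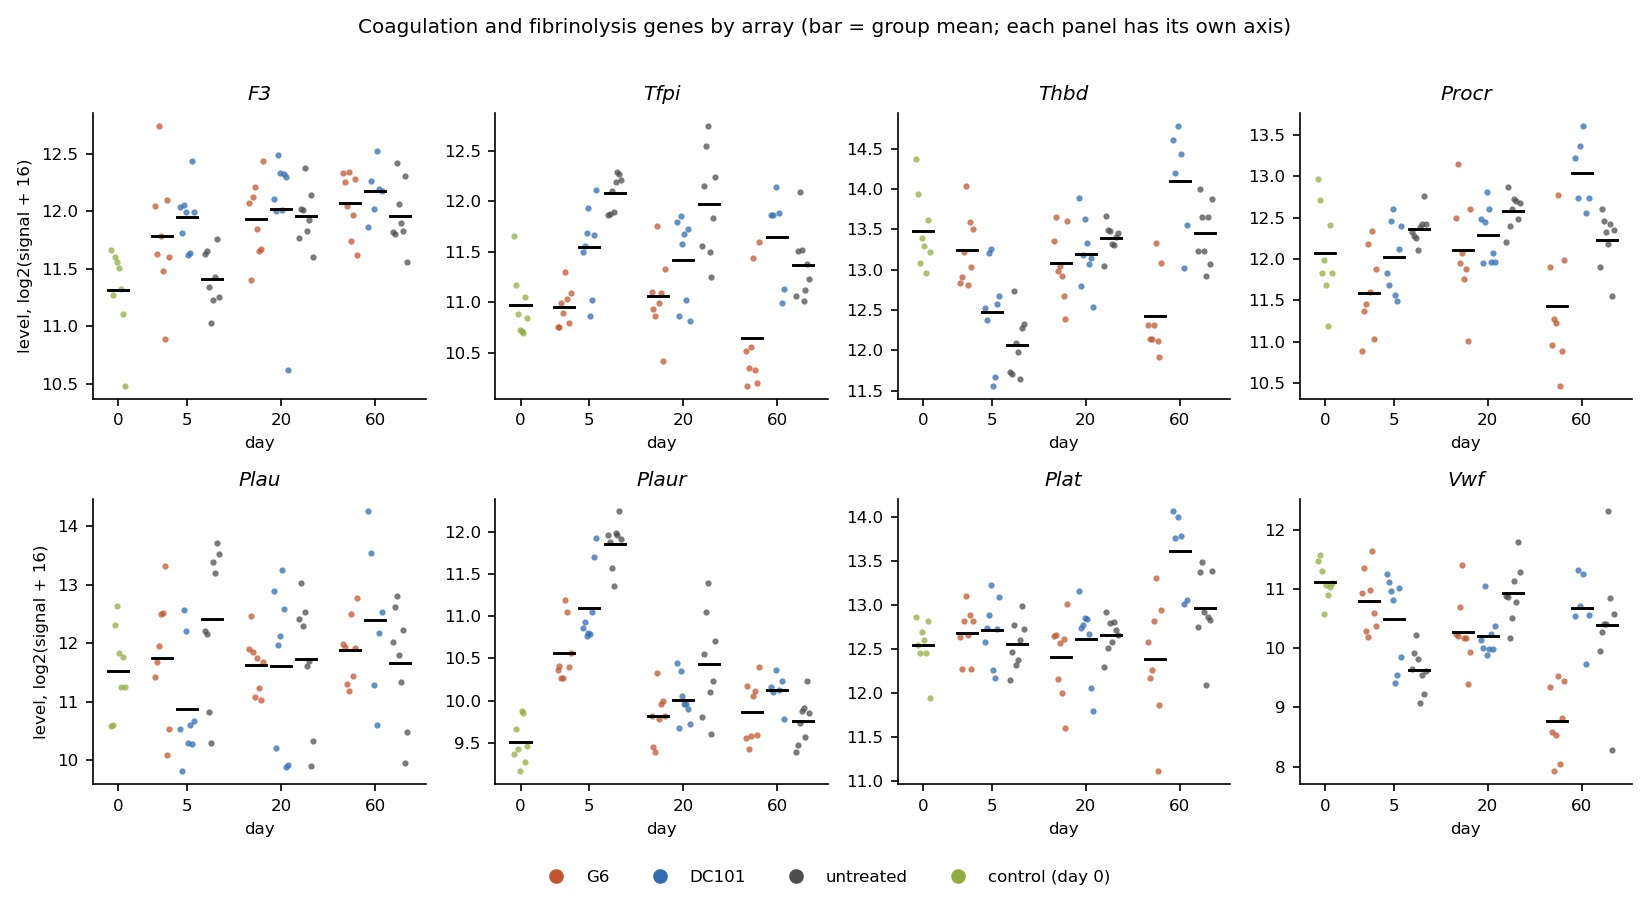
Level of the brightest probe set of each gene on every array, as log2(signal + 16), with day on the horizontal axis; points are arrays, bars are group means, and G6, DC101 and untreated sites stand side by side at each day beside control flank at day 0. Plaur peaks in untreated sites at day 5 (mean 11.86), where Thbd (12.06) and Vwf (9.64) are below every control array.

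F3 was the gene whose increase came late and stayed. In untreated sites its lowest, median and highest levels were 11.03, 11.38 and 11.76 at day 5, 11.60, 11.97 and 12.38 at day 20, and 11.56, 11.86 and 12.42 at day 60, against 10.48, 11.42 and 11.66 in control flank. The day 5 arrays therefore covered much the same range as the control arrays, and the 2 later groups lay above the control mean on 8 of 8 arrays each, with some overlap. The change against control was 0.10 at day 5 (SE 0.18, adjusted p = 0.67), 0.64 at day 20 (SE 0.18, adjusted p = 0.0028) and 0.65 at day 60 (SE 0.18, adjusted p = 0.0037). Day 20 exceeded day 5 by 0.54 (SE 0.18, adjusted p = 0.024), a call that was lost without arrays 51 and 52 of untreated day 20 (0.47, adjusted p = 0.085) and with RNA 3′ to 5′ ratios in the model (0.30, adjusted p = 0.33).

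F3 was called in 1 of 6 comparisons of an antibody with untreated sites. DC101 sites at day 5 ran from 11.62 to 12.44 with a median of 11.99, and exceeded untreated sites of that day by 0.53 (SE 0.18, adjusted p = 0.039). All 8 of 8 DC101 arrays lay above the untreated mean, with some overlap between the groups. With RNA ratios in the model that value was 0.31 (adjusted p = 0.35). G6 sites at day 5 ran from 10.89 to 12.74 and differed from untreated by 0.37 (SE 0.18, adjusted p = 0.11). That difference passed the test without G6 arrays 13 and 14 (0.57, adjusted p = 0.013). The DC101 day 60 group had the highest mean, 12.17 ± 0.23 (SD, n = 6), and all of its arrays lay above all control arrays (change 0.86, SE 0.19, adjusted p = 0.0010). The 10 group means ran from 12.17 down to 11.31 in control, and all 9 neighbouring pairs in that order lay closer than the larger of their 2 SDs.

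Tfpi, the inhibitor of the tissue factor step, rose early and fell back by day 60. Untreated day 5 levels were 11.87, 12.15 and 12.29 (lowest, median, highest), and untreated day 20 levels were 11.25, 11.99 and 12.75, against 10.69, 10.87 and 11.66 in control flank. The day 5 arrays did not overlap the control arrays, and the day 20 arrays spread widely and did. The change against control was 1.12 at day 5 (SE 0.20, adjusted p = 1.9e-06) and 1.01 at day 20 (SE 0.20, adjusted p = 2.9e-05). The other 3 probe sets were also called higher at both days, by 0.53 to 1.12 at day 5 and by 0.54 to 1.04 at day 20. At day 60 the change was 0.40 (SE 0.20, adjusted p = 0.11), with 1 of the 4 probe sets called, at 0.43 (adjusted p = 0.024).

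G6 sites had less Tfpi signal than untreated sites at the 3 days. At day 5 G6 sites had 10.76, 10.94 and 11.30, below every untreated array of that day, a difference of -1.14 from untreated (SE 0.20, adjusted p = 6.2e-06). All 4 probe sets were called lower at day 5 (-0.55 to -1.14), and 3 of 4 at day 20, where the difference was -0.92 (SE 0.20, adjusted p = 0.0017). Without arrays 51 and 52 of untreated day 20 that difference was -0.70 (adjusted p = 0.10). At day 60 G6 sites had 10.17, 10.43 and 11.60, against 11.02, 11.31 and 12.09 in untreated sites (difference -0.72, SE 0.20, adjusted p = 0.012; 2 of 4 probe sets called). DC101 sites differed from untreated by -0.55 at day 5 (SE 0.20, adjusted p = 0.058) and -0.56 at day 20 (SE 0.20, adjusted p = 0.068), and in neither case was any of the 4 probe sets called. Without DC101 array 67 the day 20 difference was -0.63 (adjusted p = 0.047), and without untreated day 20 arrays 51 and 52, which share only the model's spread with it, the day 5 difference had an adjusted p of 0.045.

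Thbd, whose product binds thrombin on endothelial cells, had its lowest level in untreated sites at day 5. There it measured 11.64, 12.04 and 12.73 (lowest, median, highest), against 12.96, 13.34 and 14.37 in control flank, with no overlap. The change was -1.42 (SE 0.23, adjusted p = 2.2e-07). By day 20 untreated sites had 13.05, 13.43 and 13.67, all above all day 5 arrays (day 20 minus day 5 1.33, SE 0.23, adjusted p = 1.0e-05). Against control the changes at days 20 and 60 were -0.09 (SE 0.23, adjusted p = 0.80) and -0.03 (SE 0.23, adjusted p = 0.94).

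G6 sites at day 5 had Thbd levels of 12.80, 13.12 and 14.04, above every untreated array of that day. The difference from untreated was 1.18 (SE 0.23, adjusted p = 3.8e-05), and from control -0.24 (SE 0.23, adjusted p = 0.42). DC101 sites at day 5 ran from 11.56 to 13.25 with a median of 12.55 and differed from untreated by 0.42 (SE 0.23, adjusted p = 0.23). They were lower than control by -1.0 (SE 0.23, adjusted p = 0.00021). At day 60 G6 sites had 11.91, 12.23 and 13.33 and DC101 sites 13.01, 14.32 and 14.78, against 12.92, 13.44 and 14 in untreated sites. G6 was lower than untreated by -1.04 (SE 0.23, adjusted p = 0.0016), and DC101 differed by 0.64 (SE 0.25, adjusted p = 0.072). The change of the G6 effect, day 20 minus day 5, was -1.50 (SE 0.32, adjusted p = 0.0018).

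Procr, the protein C receptor gene, did not pass against control in untreated sites at any day, with changes of 0.29, 0.50 and 0.15 at days 5, 20 and 60 (SE 0.23 each, adjusted p = 0.31, 0.079 and 0.65). Its probe set is of the type that can match transcripts of more than 1 gene, although the annotation gives it a single symbol. G6 sites had 10.88, 11.52 and 12.34 at day 5, against 12.10, 12.35 and 12.76 in untreated sites, a difference of -0.77 (SE 0.23, adjusted p = 0.0076). At day 60 G6 sites had 10.47, 11.25 and 12.78 and DC101 sites 12.55, 12.98 and 13.61, against 11.55, 12.34 and 12.61 in untreated sites. G6 was lower than untreated by -0.79 (SE 0.23, adjusted p = 0.019) and DC101 higher by 0.81 (SE 0.25, adjusted p = 0.024). Without untreated array 79 the DC101 difference was 0.71 (adjusted p = 0.066). The DC101 group at day 60 had the highest mean of the 10 and the G6 group at day 60 the lowest.

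Plaur, the urokinase receptor gene, had the largest change of the 8 in untreated sites against control. Untreated day 5 sites had 11.36, 11.94 and 12.24 (lowest, median, highest), against 9.16, 9.44 and 9.88 in control flank, so that the groups lay more than 1 log2 unit apart at their nearest arrays. The change was 2.35 (SE 0.18, adjusted p = 5.7e-18). At day 20 untreated sites spread from 9.60 to 11.40 with a median of 10.39 (change against control 0.92, SE 0.18, adjusted p = 2.3e-05), and at day 60 from 9.39 to 10.24 (0.25, SE 0.18, adjusted p = 0.29). The step down was -1.43 between days 5 and 20 (SE 0.18, adjusted p = 8.4e-09) and -0.67 between days 20 and 60 (SE 0.18, adjusted p = 0.0033). Without arrays 51 and 52 of untreated day 20 the second step was -0.41 (adjusted p = 0.12).

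Both antibodies lowered Plaur at day 5 without bringing it to the control level. G6 sites had 10.27, 10.41 and 11.20 and DC101 sites 10.76, 10.90 and 11.93, both above every control array, and no G6 array reached the lowest untreated array. G6 was lower than untreated by -1.29 (SE 0.18, adjusted p = 3.1e-08) and DC101 by -0.76 (SE 0.18, adjusted p = 0.0021). Against control they were higher by 1.05 (SE 0.18, adjusted p = 1.7e-06) and 1.59 (SE 0.18, adjusted p = 3.1e-11). At day 20 G6 was lower than untreated by -0.61 (SE 0.18, adjusted p = 0.021; -0.35 and adjusted p = 0.40 without arrays 51 and 52), and DC101 differed by -0.42 (SE 0.18, adjusted p = 0.14).

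Plau, which encodes the ligand of that receptor, spread too widely within groups for most comparisons. Untreated day 5 sites ran from 10.29 to 13.71 with a median of 12.71, and control flank from 10.59 to 12.64 with a median of 11.51. The within-group SD reached 1.39 (DC101 day 20, n = 8), and the change at day 5 was 0.89 (SE 0.50, adjusted p = 0.14). The 1 call was DC101 against untreated at day 5, -1.54 (SE 0.50, adjusted p = 0.032, 7 of 8 arrays below the untreated mean), where DC101 sites ran from 9.81 to 12.56 with a median of 10.57. That call was lost with RNA ratios in the model (-1.34, adjusted p = 0.13). The dimmer Plau probe set moved with the brighter one over the 78 arrays (Pearson r = 0.87) and differed by -0.78 in that comparison (SE 0.34, adjusted p = 0.13). Its level was under the filter level on 3 of 8 arrays of both G6 and DC101 at day 5, against 1 of 8 untreated arrays.

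Plat, the tissue-type activator gene, was called in untreated sites at day 20 only, and only by its dimmer probe set (0.38, SE 0.15, adjusted p = 0.044). By the brighter one, untreated sites differed from control by 0.00, 0.11 and 0.41 at days 5, 20 and 60 (SE 0.20 each, adjusted p = 0.99, 0.71 and 0.11). DC101 sites at day 60 had 13.01, 13.77 and 14.06, against 12.09, 12.89 and 13.49 in untreated sites and 11.95, 12.58 and 12.87 in control flank. They were higher than untreated by 0.65 (SE 0.22, adjusted p = 0.039) and higher than control by 1.06 (SE 0.22, adjusted p = 0.00038), with no overlap with control. The first call was lost without untreated array 77 (0.53, adjusted p = 0.10) and without array 79 (0.63, adjusted p = 0.066). Without array 77 the untreated change at day 60 was 0.54 (adjusted p = 0.035). The 2 Plat probe sets hardly moved together over the 78 arrays (Pearson r = 0.15), and they differed in sign for G6 against untreated at day 60, at -0.58 (SE 0.20, adjusted p = 0.053, and -0.70 with adjusted p = 0.021 without array 77) for the brighter and 0.45 (SE 0.15, adjusted p = 0.045) for the dimmer. In DC101 sites at day 60 both were called higher (dimmer 0.53, SE 0.17, adjusted p = 0.025).

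Vwf, the platelet tether of the vessel wall, fell while most endothelial markers rose. Untreated day 5 sites had 9.07, 9.64 and 10.22 (lowest, median, highest), against 10.57, 11.08 and 11.57 in control flank, with no overlap. The change was -1.49 (SE 0.30, adjusted p = 2.3e-05). On the same arrays 14 of 16 endothelial markers were called higher and 2 lower (Tek -0.57 and Sele -0.95), among them Pecam1 at 2.10 and Cdh5 at 3.17 higher, and their summed signal ran from 127410 to 197219 with a median of 159044, against 19559 to 32979 with a median of 27818 in control flank. At day 20 untreated sites had Vwf levels of 10.17, 10.87 and 11.80, higher than at day 5 by 1.29 (SE 0.30, adjusted p = 0.0010) and not called against control (-0.20, SE 0.30, adjusted p = 0.64), while 14 endothelial markers were called higher and 0 lower. In whole tissue, fewer cells of a type and less RNA per cell cannot be told apart.

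Both antibodies raised Vwf at day 5. G6 sites had 10.20, 10.77 and 11.64 and DC101 sites 9.42, 10.90 and 11.25, and they exceeded untreated sites by 1.16 (SE 0.30, adjusted p = 0.0019) and 0.86 (SE 0.30, adjusted p = 0.046). With RNA ratios in the model the DC101 value was 0.69 (adjusted p = 0.14). Over the same comparisons 1 endothelial marker was called higher and 14 lower with G6, and 0 higher and 3 lower with DC101. At day 20 neither antibody effect on Vwf was called (G6 -0.65, SE 0.30, adjusted p = 0.18; DC101 -0.72, SE 0.30, adjusted p = 0.14). The antibody effect itself differed between the days: day 20 minus day 5 was -1.81 for G6 (SE 0.42, adjusted p = 0.0043) and -1.58 for DC101 (SE 0.42, adjusted p = 0.029). The DC101 value was -0.96 with RNA ratios in the model (adjusted p = 0.36).

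At day 60 Vwf was lowest in G6 sites, with 7.93, 8.70 and 9.53, against 8.27, 10.41 and 12.31 in untreated sites and 10.57, 11.08 and 11.57 in control flank. The difference was -1.61 from untreated (SE 0.30, adjusted p = 0.00031) and -2.35 from control (SE 0.30, adjusted p = 2.8e-09), and 2 of the 8 G6 arrays were under the filter level. Untreated sites at day 60 had the widest Vwf spread of the 10 groups (SD 1.11, n = 8). Their change against control, -0.74 (SE 0.30, adjusted p = 0.048), was lost without array 79 (-0.44, adjusted p = 0.24), without array 75 (-0.75, adjusted p = 0.058) and without the control array lowest for F3 (-0.75, adjusted p = 0.068). It was -0.01 with RNA ratios in the model (adjusted p = 0.99). Array 79, lowest of its group for Vwf (8.27), had a mean skeletal muscle marker level of 11.98, against a group median of 15.39. G6 arrays 86 and 87 of day 60 had 10.90 and 11.33, with Vwf at 8.05 and 8.82, against a group median of 14.44. G6 array 83, the lowest for Vwf (7.93), had 14.25. The part of muscle content in these day 60 values was not tested.

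**Figure D2:**
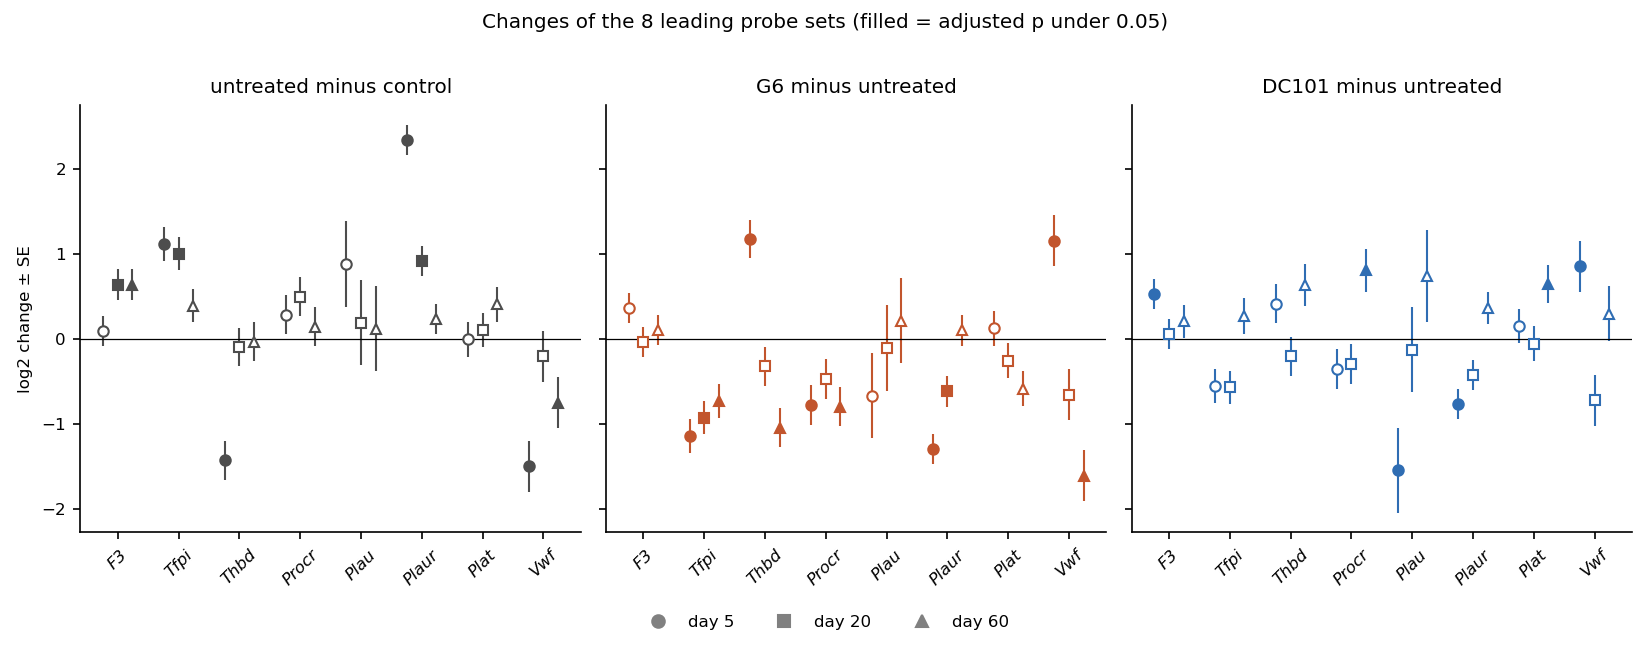
Change of the brightest probe set of each gene (log2, error bars are the model's SE) for untreated against control, G6 against untreated and DC101 against untreated at days 5, 20 and 60; filled symbols passed an adjusted p of 0.05. At day 5 Plaur (2.35) and Tfpi (1.12) lie above 0 and Thbd (-1.42) and Vwf (-1.49) below it in untreated sites, and all 4 have the opposite sign under G6.

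The 2 antibodies were also set against each other, at doses that differ (G6 10 mg/kg, DC101 20 mg/kg). At day 5, 5 of 13 probe sets were called, against 13.8% of all: G6 was lower than DC101 for Plaur by -0.54 (SE 0.18, adjusted p = 0.031) and for 3 of 4 Tfpi probe sets by -0.52 to -0.64, and higher for Thbd by 0.76 (SE 0.23, adjusted p = 0.015). With RNA ratios in the model 0 of the 13 were called. At day 20, 0 of 13 were called by limma, with 0 at an unadjusted p under 0.05, and 0.371% of all were called. At day 60, 8 of 13 were lower in G6 than in DC101 sites and none higher, against 37.9% of all called. They were Vwf (-1.91, SE 0.32, adjusted p = 5.9e-06, no overlap), Thbd (-1.68, SE 0.25, adjusted p = 5.0e-07), Procr (-1.60, SE 0.25, adjusted p = 1.7e-06), Plat (-1.23, SE 0.22, adjusted p = 1.3e-05) and the 4 Tfpi probe sets (-0.55 to -1.0). F3, Plau and Plaur differed by -0.10 (SE 0.19), -0.52 (SE 0.54) and -0.26 (SE 0.19), with adjusted p = 0.72, 0.48 and 0.28.

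RNA quality differed between groups along with several of these contrasts. The ratio of 3′ to 5′ Actb signal rises as RNA breaks down. At day 60 it had a median of 2.22 in G6 sites (1.81 to 3.03) and 1.3 in DC101 sites (1.17 to 1.56). It was 1.88 in untreated sites of that day (1.58 to 2.57) and 1.31 in control flank (1.21 to 1.5). The Gapdh ratio at day 60 had medians of 0.85 in G6, 0.82 in DC101 and 0.95 in untreated sites, against 0.80 in control flank. By the Gapdh median G6 sites thus lay below untreated sites, the opposite of the Actb order. With the ratios of Actb and Gapdh added as covariates, 0 of 13 probe sets were called for G6 against DC101 at day 60, where Vwf had -0.63 (adjusted p = 0.62) and Thbd -0.91 (adjusted p = 0.27). The same held for G6 against untreated and for DC101 against untreated at day 60, with 0 called in each. Array 79 of untreated day 60 also decided the DC101 count there, which was 1 without it. All Actb ratios of DC101 sites at day 60 lay below all those of G6 and of untreated sites. In the comparisons of DC101 with either, the fit with covariates therefore rests on slopes shared by all 10 groups. Whether those slopes hold across the gap in Actb ratio between the compared groups was not tested. The part of RNA breakdown in these day 60 differences was not tested beyond that fit. At day 5 the Actb ratio had a median of 1.76 in G6 sites and 1.29 in DC101 sites, against 1.62 in untreated sites. The Gapdh ratio had 1.24 in G6 sites and 0.85 in DC101 sites, against 1.03 in untreated sites. With the ratios in the model the day 5 counts were 9 for G6 against untreated (8 without them), 1 for DC101 against untreated (4 without), 0 for G6 against DC101 (5 without) and 7 for untreated against control (7 without). No share of all probe sets called is given for any count made with the ratios in the model. A lost call there is therefore not shown to be particular to these genes.

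**Figure D3:**
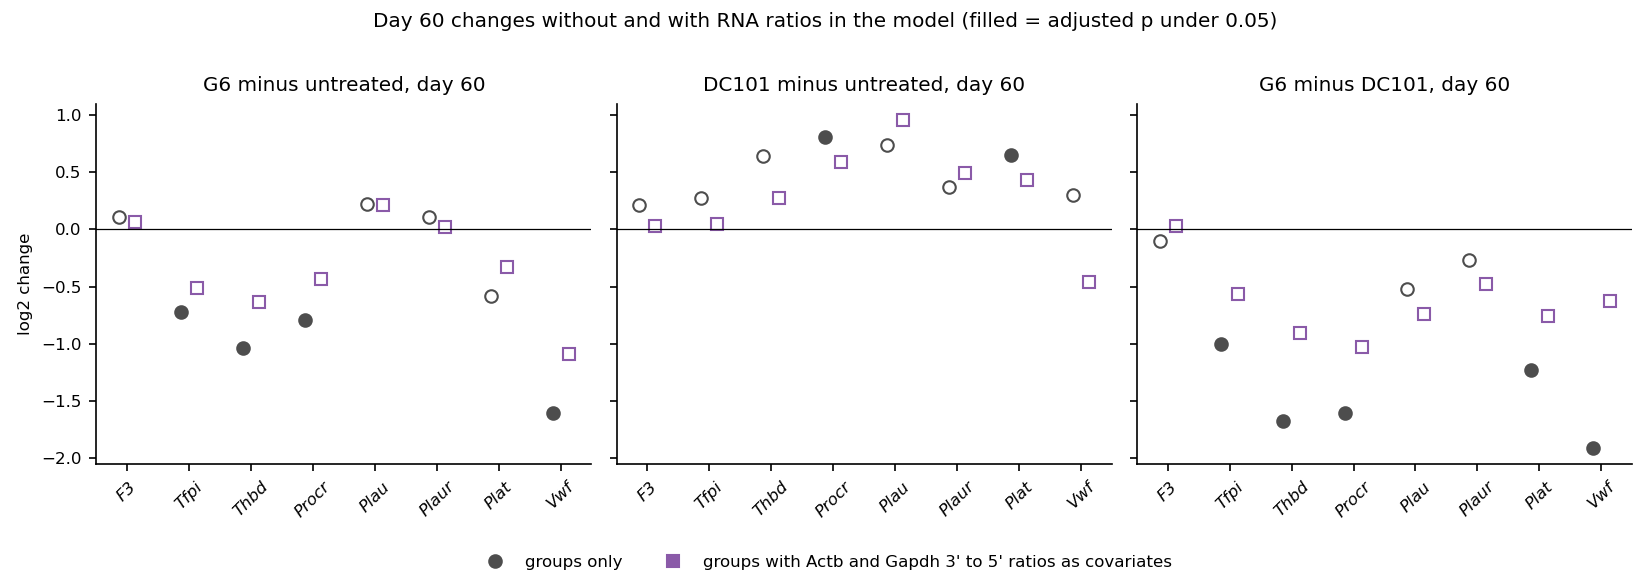
Log2 change of the 8 genes at day 60 for G6 against untreated, DC101 against untreated and G6 against DC101, with groups alone in the model (grey circles) and with the Actb and Gapdh 3′ to 5′ ratios added (purple squares); filled symbols passed an adjusted p of 0.05. No purple symbol is filled in any of the 3 panels, and Vwf for G6 against DC101 stands at -0.63 beside -1.91.

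The antibody groups were also set against control flank. G6 had 2 of 13 probe sets called at day 5 (39.9% of all called), namely Plaur and F3, of which F3 (0.47, SE 0.18, adjusted p = 0.030) was 0.35 without the control array that was lowest for F3 (adjusted p = 0.12). At day 20 G6 had 2 (32.3% of all), F3 at 0.61 (SE 0.18, adjusted p = 0.0059) and Vwf at -0.85 (SE 0.30, adjusted p = 0.023). At day 60 it had 5 (47.0% of all), and the count was 1 with RNA ratios in the model. DC101 had 5 at day 5 (43.1% of all), 4 at day 20 (28.7%; 2 without DC101 array 67) and 8 at day 60 (19.7%). The last were all higher and took in Plat, F3, Procr, Tfpi and Plaur, and the count was also 8 with RNA ratios in the model. In untreated sites themselves, day 20 against day 5 had 4 of 13 called (18.9% of all), which were Plaur lower and Thbd, Vwf and F3 higher. Day 60 against day 20 had 4 called, all lower (22.7% of all), Plaur and 3 Tfpi probe sets, and 0 without arrays 51 and 52.

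The effect of an antibody was also compared between days. For G6, day 20 minus day 5 had 2 of 13 called (Thbd and Vwf, 9.15% of all), and day 60 minus day 20 had 0 called by limma, with 4 at an unadjusted p under 0.05 (0.0862% of all called). For DC101, day 20 minus day 5 had 1 called (Vwf, 2.02% of all), and day 60 minus day 20 had 6, all positive (17.2% of all): Procr at 1.10, 3 Tfpi probe sets at 0.84 to 1.36, Plaur at 0.79 and the dimmer Plat probe set at 0.64. With RNA ratios in the model that last count was 0, and without untreated day 20 arrays 51 and 52 it was 2.

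Other genes of the same pathways were taken from fixed lists, 1 probe set a gene, and their day 5 counts in untreated sites stand beside 26.6% of all probe sets called higher and 23.6% lower. With so few genes a list, counts near those shares say nothing particular about it. Of 11 further plasminogen-system genes on the array 9 passed the filter, and in untreated sites at day 5 there were 5 higher and 1 lower than control (median change 0.38, beside 0.05 over all probe sets). Serpinb2, an inhibitor of urokinase and tissue-type activator, rose by 1.87 at day 5 (SE 0.55, adjusted p = 0.0032) and by 2.85 at day 60 (SE 0.55, adjusted p = 4.2e-05). It was higher again in G6 than in untreated sites at day 5, by 1.43 (SE 0.55, adjusted p = 0.039). Hpn, which encodes the membrane protease hepsin, was called lower than control at days 5, 20 and 60 (adjusted p = 0.0019, 0.0081 and 0.00034). Its mean levels of 7.26, 7.43 and 6.88 lay under the filter level of 8.44, against 8.82 in control flank, and on day 5, when every untreated array was under it, the difference was at least 1.3-fold. Plg, the plasminogen gene, lay below the filter level on every array.

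Of 16 genes on the coagulation cascade list 8 passed the filter, and 3 were higher and 2 lower at day 5, shares of the 8 that lie near those of all probe sets. The list also held Tgm2, which is not a coagulation factor gene. Its mean level was 13.19 in untreated sites at day 5 and 14.64 in control flank. F7, which encodes the partner of tissue factor, rose by 1.61 (SE 0.22, adjusted p = 3.8e-09), to a mean level of 9.56, against 7.95 in control flank, which is under the filter level. F10, the gene of factor X, was called higher at day 20 (adjusted p = 2.6e-05) and Fgg, a fibrinogen chain gene, lower at day 5 (adjusted p = 3.7e-06). The group means of both lay under the filter level on each side, so that no fold is given, and the genes of the other 2 fibrinogen chains, Fga and Fgb, lay below the filter level on every array.

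Of 10 other anticoagulant genes 8 passed, and 4 were higher and 2 lower at day 5. Tfpi2, a second protease inhibitor of the Tfpi family, rose with Tfpi, by 2.42 at day 5 (SE 0.23, adjusted p = 3.8e-14), and was lower in G6 than in untreated sites by -2.08 (SE 0.23, adjusted p = 7.2e-11) and in DC101 sites by -1.10 (SE 0.23, adjusted p = 0.00046). Ptgis, which makes the platelet inhibitor prostacyclin, fell by 1.21 at day 5 (SE 0.42, adjusted p = 0.012) and was higher with G6 than in untreated sites at day 5 by 1.36 (SE 0.42, adjusted p = 0.0089). At day 60 it was lower with G6 by -1.38 (SE 0.42, adjusted p = 0.023). Proc, the protein C gene itself, lay below the filter level on every array.

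The receptors that thrombin cleaves held the largest change among the 6 pathway lists, and of 3 genes 2 were higher and 0 lower at day 5. F2r, the main thrombin receptor, rose by 4.19 at day 5 (SE 0.32, adjusted p = 5.2e-18) and by 3.35 at day 20 (SE 0.32, adjusted p = 4.0e-13). G6 lowered it by -2.34 at day 5 (SE 0.32, adjusted p = 2.0e-08). F2rl3, a second thrombin receptor, rose by 2.17 at day 5 (SE 0.41, adjusted p = 6.3e-06), with a control mean of 7.48 under the filter level. F2rl2 passed the filter and was not called at day 5. Of 11 platelet genes that passed the filter 8 were higher at day 5 and 0 lower, led by Itgb3 at 2.87 (SE 0.34, adjusted p = 6.3e-11) and Thbs1 at 2.77 (SE 0.34, adjusted p = 1.4e-10), both of which other cell types also express. Ppbp, a platelet chemokine gene, was lower in G6 than in untreated sites at day 5 by -1.95 (SE 0.43, adjusted p = 0.00026), where the G6 mean of 8.25 lay under the filter level.

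Of 7 genes of the Weibel-Palade body, the storage organelle of Vwf, 3 were higher and 1 lower than control at day 5, with Angpt2 at 2.39 (SE 0.28, adjusted p = 7.7e-11) and Mmrn1 at 2.02 (SE 0.48, adjusted p = 0.00032). Selp, the P-selectin gene, fell by 0.67 (SE 0.19, adjusted p = 0.0017). It was higher in G6 than in untreated sites at day 5 by 1.17 (SE 0.19, adjusted p = 1.1e-06), while Angpt2 was lower by -2.10 (SE 0.28, adjusted p = 2.1e-08). With DC101 at day 5 Angpt2 was lower by -0.94 (SE 0.28, adjusted p = 0.019).

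**Figure D4:**
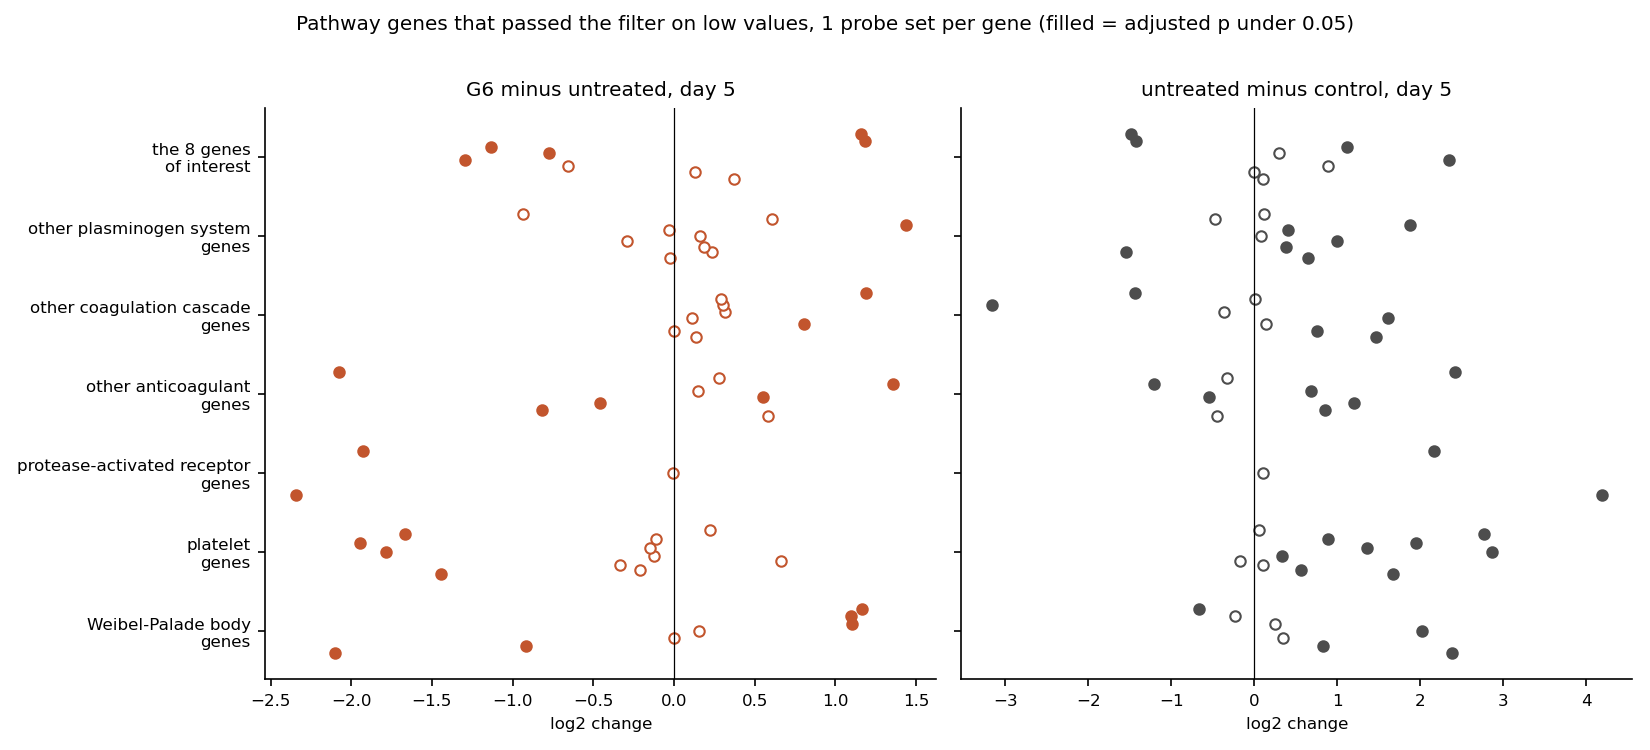
Log2 change at day 5 of the 8 genes and of the other pathway genes that passed the filter, for G6 against untreated (left) and untreated against control (right, on a wider axis); each point is 1 gene, filled where the adjusted p was under 0.05. The thrombin receptor F2r is the point farthest right in the untreated panel (4.19) and farthest left in the G6 panel (-2.34).

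Markers of other tissue components moved at the same times. In untreated sites at day 5, 9 of 10 skeletal muscle markers and 6 of 8 adipocyte markers were lower than control and none higher, and 11 of 12 macrophage markers were higher and none lower. The summed skeletal muscle signal ran from 210772 to 340004, against 583898 to 1289253 in control flank, and the summed macrophage signal from 224385 to 285005, against 65297 to 197993. In G6 sites at day 5, 8 of 10 muscle markers were higher than in untreated sites, with sums of 358424 to 895348, and at day 60, 8 of 12 macrophage markers were lower. No marker of these lists was below the filter level on every array. The mean level of the keratinocyte markers was 12.56 in control flank, the lowest of the 10 groups. It was 13.70 in untreated and 14.60 in G6 sites at day 5. F3 correlated with it at a Pearson r of 0.34 over all arrays and 0.16 within groups. The part of muscle, macrophage or keratinocyte content in the changes of Vwf, Thbd, Plaur and F3 was not tested.

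Over the 78 arrays, which share the groups and the array type, Tfpi correlated with the mean level of the 16 endothelial markers at a Pearson r of 0.72, and at 0.52 after the group means were taken out. With the macrophage markers the values were 0.66 and 0.83, the second being its highest of the marker lists within groups. For Vwf and the endothelial markers they were 0.23 and 0.35. Vwf had 0.63 with the skeletal muscle markers, 0.55 with the smooth muscle and pericyte markers and -0.60 with the log2 Actb ratio, and within groups 0.44, 0.63 and -0.44. Plaur had 0.73 with the endothelial markers, 0.72 with the macrophage markers and 0.77 with the platelet genes, and within groups 0.58, 0.37 and 0.34. Among the 8, the closest pairs were Plat with Procr (0.69), Procr with Tfpi (0.68) and Plat with Thbd (0.67), while within groups they were Procr with Thbd (0.79), Plat with Thbd (0.75) and Plat with Procr (0.72). Thbd and Plaur had -0.43 over all arrays and 0.07 within groups. With the endothelial markers Thbd had -0.24 over all arrays and 0.07 within groups, Procr 0.29 and 0.06, and Plat -0.10 and -0.10. With the macrophage markers Thbd had 0.06 and 0.75, Procr 0.39 and 0.69, and Plat 0.46 and 0.67. Thbd had 0.50 and 0.65 with the fibroblast markers.

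**Figure D5:**
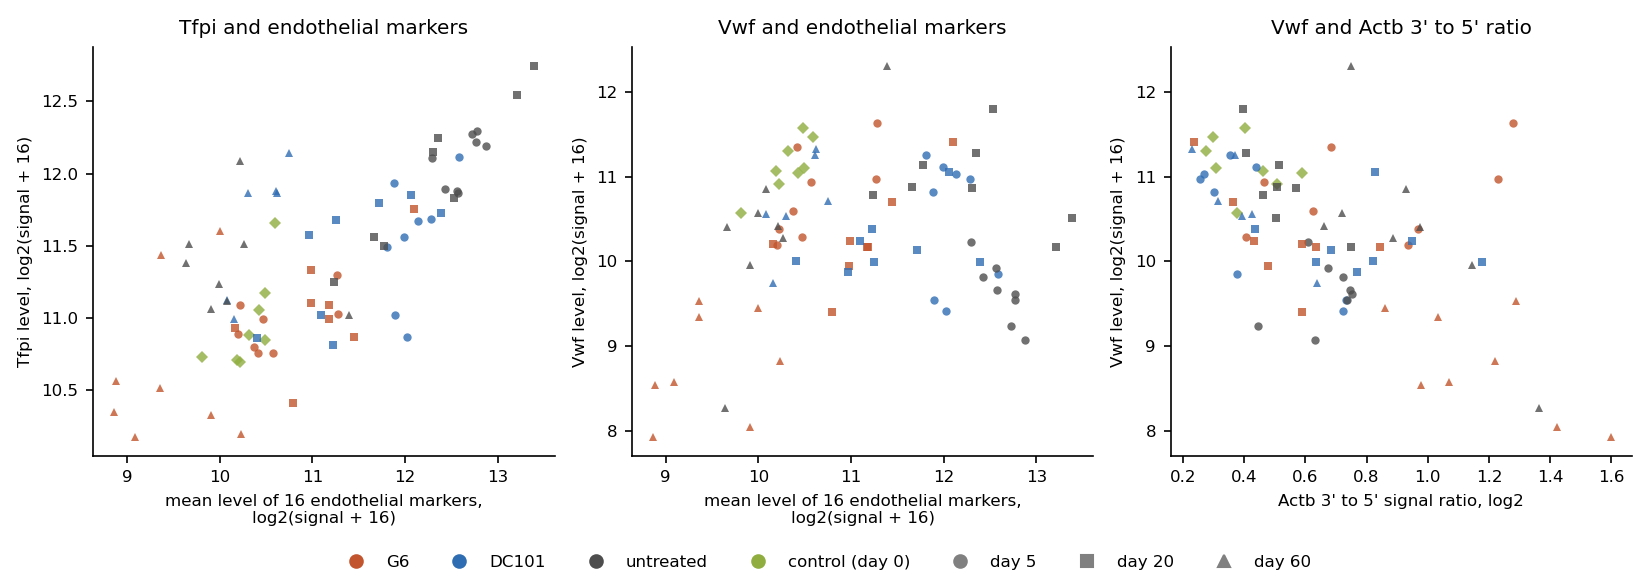
Level of Tfpi (left) and Vwf (middle) against the mean level of 16 endothelial markers, and of Vwf against the log2 Actb 3′ to 5′ ratio (right), 1 point an array, with colour for treatment and symbol shape for day (control flank as diamonds). Tfpi climbs with the endothelial markers (r = 0.72 over 78 arrays), while the untreated day 5 arrays combine high endothelial levels with Vwf levels of 9.07 to 10.22.

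The genes whose levels were most like each member over the 78 arrays were, by Pearson r, Mest (0.92), Apold1 (0.88) and Tmem255a (0.88) for Plaur, and Calcrl (0.88), Lama4 (0.87) and Ramp2 (0.87) for Tfpi. Thbd had C1qtnf1, Gpc6 and Lrrn4cl at 0.90 each. Plat had Adamts5 and B3galnt1 at 0.87 and Ebf2 at 0.86, and Procr had Pdgfd (0.84), Poglut3 (0.81) and Pde8a (0.80). Vwf had Tgm2 (0.80), Sobp (0.79) and Tspan17 (0.76), F3 had Pdlim2 (0.71), Cd9 (0.70) and Rbsn (0.68), and Plau had Pxk (0.62) with the next 2, Cit and Atrnl1, at 0.42.

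The order of the 10 group means differed from gene to gene. Plaur had untreated, DC101 and G6 at day 5 on top (11.86, 11.10 and 10.57), with the first 2 steps larger than the larger SD of the pair. Control flank was at the bottom for Plaur and F3 and at the top for Vwf (11.13), where the 2 lowest means were untreated day 5 (9.64) and G6 day 60 (8.78). For Thbd the top was DC101 day 60 (14.10) and the bottom untreated day 5 (12.06), and all 9 neighbouring pairs lay closer than the larger of their SDs. The same count was 9 of 9 for Tfpi and Plau, 8 of 9 for Plat, and 7 of 9 for Plaur, Procr and Vwf.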

How the data were processed

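RNA from mouse flank tissue was hybridised to 78 Affymetrix mouse genome arrays, 1 a sample. The deposited unit is a linear intensity for each probe set, made by the authors with MAS5 in GCOS 1.3, per the submitters' processing notes. The values bear this out: none is negative (0.15 to 186384.77), and the median per array lay between 454.85 and 582.58. No array duplicated another (highest correlation 0.972). Arrays give no counting depth, so that their number limits the precision.

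The platform annotation gave 1 gene symbol for 34945 of 45101 probe sets (control probes left out). Groups came from the titles. Levels are log2(signal + 16). This pseudocount understates changes of dim genes. Probe sets were kept where at least 6 arrays had a signal over 331 (the 40th percentile). Then 1 limma 3.58.1 model (R 4.3.3) was fitted over the 10 groups with eBayes and an intensity trend. Tests are two-sided, with Benjamini-Hochberg adjustment over 26685 probe sets and a threshold of 0.05. The script was tested on simulated data.

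The members, the gene lists and the tests were chosen with earlier results of these data known. All probe sets of the members are named, the 2 largest called genes of each pathway list in each main comparison were eligible to be named, and the 3 most correlated genes of each member. F2rl2, Pecam1, Cdh5, Tek, Sele and, in untreated sites, Selp were named after their values were seen. Of 164 list entries other than members, 150 had a single-symbol probe set. Replicates are separate arrays, and p-values measure the spread between them, which may be technical in part. Alternatives covered the pseudocount, filter, normalization, probe set choice, array weights, RNA 3′ to 5′ ratios, adjacent arrays and single arrays left out.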

Additional observations from a re-analysis of the deposited data

Results flagged for a closer look

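Of 130 sets of values (13 probe sets in 10 groups), 5 held an array far from the rest of its group, where 6.5 would be expected since chance flags about 1 group in 20. F3 was at 10.62 on array 72 of DC101 day 20, where the other arrays lay between 12 and 12.49, and at 10.48 on 1 array of control flank, where the others lay between 11.11 and 11.66. The same control array had Plat at 11.95, with the others between 12.46 and 12.87. Tfpi was at 12.09 on array 75 of untreated day 60, with the others between 11.02 and 11.51. Vwf was at 11.05 on array 67 of DC101 day 20, with the others between 9.88 and 10.38.

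The antibody effect differed between days by an interaction test in 9 cases, of which Vwf accounts for 2, 1 under each antibody. For G6, day 20 minus day 5 was -1.81 for Vwf (adjusted p = 0.0043) and -1.50 for Thbd (adjusted p = 0.0018). For DC101, day 20 minus day 5 was -1.58 for Vwf (adjusted p = 0.029). For DC101, day 60 minus day 20 was 1.10 for Procr (adjusted p = 0.019), 0.84, 1.01 and 1.36 for 3 Tfpi probe sets (adjusted p = 0.035, 0.011 and 0.0016), 0.79 for Plaur (adjusted p = 0.027) and 0.64 for the dimmer Plat probe set (adjusted p = 0.039).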

How the results depend on the processing

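Of 66 calls among the 8 brightest probe sets in 24 comparisons, all 66 were kept with a pseudocount of 1 or 64, with array weights, with 1 probe set a gene and without G6 day 5 arrays 13 and 14. The number still called was 65 after quantile normalization, 64 without the filter, 59 without untreated day 20 arrays 51 and 52, 54 with only the compared groups in the model, 43 with adjacent arrays averaged and 36 with RNA 3′ to 5′ ratios as covariates. No called change reversed its sign, and 57 uncalled ones changed sign and stayed uncalled. Leaving out 1 control array (the lowest for F3 and Plat), untreated day 60 array 75 and DC101 day 20 arrays 72 and 67 was chosen after seeing the data and left 64, 65, 65 and 65 calls. No paired analysis was possible because each array has its own number, which no other group repeats.

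Counts of called probe sets among the 13 that changed by over 1.5 times were as follows. With RNA ratios they were 1 for DC101 against untreated at day 5, 0 for G6 and for DC101 against untreated at day 60, 0 for G6 against DC101 at days 5 and 60, 1 for G6 against control at days 20 and 60, 1 for untreated day 60 against day 20, and 0 for both DC101 differences between days. With adjacent arrays averaged they were 1 for DC101 against untreated at days 5 and 60, 1 and 3 for G6 against untreated at days 20 and 60, 1 for G6 against DC101 at day 5, 1 for G6 against control at days 5 and 20 and for DC101 at day 20, 2 for untreated day 60 against day 20, and 0 and 3 for the DC101 differences. With only the compared groups they were 0 and 1 for G6 against untreated at days 20 and 60, 1 for DC101 at day 60 and 1 for G6 day 5 against control. Array weights gave 7 for DC101 against untreated at day 60, 7 for DC101 day 20 against control and 4 for the first G6 difference. A 2-fold minimum, which can only lower a count, gave 2 and 0 for untreated against control at days 20 and 60, 5, 0 and 2 for G6 and 1 and 0 (days 5 and 60) for DC101 against untreated, 0 and 5 for G6 against DC101 at days 5 and 60, 1, 0 and 2 for G6 and 2, 0 and 1 for DC101 against control, 0 for untreated day 60 against day 20 and 3 for the second DC101 difference. With 1 probe set a gene, 8 in place of 13, the counts were 4 and 3 for untreated against control at days 5 and 20, 5 and 2 for G6 and 2 (day 60) for DC101 against untreated, 3 and 5 for G6 against DC101 at days 5 and 60, 5 for DC101 day 60 against control, 2 for untreated day 60 against day 20 and 3 for the second DC101 difference. Without arrays 51 and 52 they were 0 for G6 against untreated at day 20, 0 for untreated day 60 against day 20 and 2 for the second DC101 difference, and without array 79, 1 for DC101 against untreated at day 60. DC101 against untreated at day 20 had 1 with a pseudocount of 64, 1 without that control array and 2 without array 67. Without array 67 DC101 day 20 against control had 2, and without that control array G6 day 5 against control had 1. The cause of these shifts was not tested, except where fewer probe sets or arrays enter by construction.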
